A study of Mus musculus with 20 samples.

Results

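Cell cycle and DNA replication genes of mouse quadriceps muscle are described here as a set of 35 genes, chosen by gene name. They are cyclins of the growth phases, the minichromosome maintenance (MCM) helicase, enzymes of DNA synthesis and nucleotide supply, 2 chromatin markers of dividing cells, mitotic cyclins and kinases, proteins of the spindle checkpoint and of anaphase, centromere proteins, and spindle motors. All 35 of 35 were among the 17415 genes of the table. Each also had at least 0.5 CPM (reads of a gene per 1e+06 reads of its library) in at least 3 of 20 libraries, a filter on low values that 15794 genes passed. Of the 35 genes, 11 reached the filter only through PLA Ab ACLT libraries, so the filter favoured calls in which that group was high. With no filter the counts of genes called below were the same.

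The libraries came from quadriceps of adult mice, collected 7 days after surgical cutting of the anterior cruciate ligament of the knee (ACLT) in a single limb, with the opposite limb as control. GDF8, or myostatin, is secreted by muscle, belongs to the TGF-beta family and limits muscle size. The 4 groups of 5 libraries were GDF8 Ab ACLT (injured limb, antibody against GDF8), GDF8 Ab control (non-injured limb, same antibody), PLA Ab ACLT (injured limb, placebo antibody) and PLA Ab control (non-injured limb, placebo antibody). The antibodies given by the study are REGN647 for GDF8 Ab, a humanized antibody that does not bind GDF11 or activin A, and REGN1945 for PLA Ab. Every mouse received an antibody, so no group is untreated, and each control limb belongs to a mouse operated on in the other limb. The study used both sexes, and gave the antibodies to wild-type as well as collagen reporter mice. Its RNA-seq muscle is credited to the experiment in which collagen reporter cells were counted in quadriceps. The labels give neither sex nor strain for a library.

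Most cells of adult muscle do not divide. The nuclei inside muscle fibres have left the cell cycle for good, and satellite cells, the muscle stem cells, rest until damage calls them into division. A dividing cell first makes growth-phase cyclins, then loads and fires the MCM helicase at replication origins and copies its DNA, and then makes mitotic cyclins, kinases and spindle proteins, which are destroyed again as the cell divides. Macrophages, endothelial cells and fibro-adipogenic progenitors, the connective tissue progenitors of muscle, can also divide after injury.

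Many promoters of these genes carry known sequence elements. CCAAT boxes bind NF-Y, the cell cycle homology region (TTTGAA or TTCGAA) recruits the MuvB complexes that silence mitotic genes in resting cells, and E2F elements (searched as TTTGGCGC, TTTCCCGC and TTTGGCGG) serve genes of DNA replication. RefSeq promoter windows (GRCm38.p6), from 250 bases before to 50 bases after the start of transcription, were matched for 29 of the 35 genes and gave 31 windows. On either strand, CCAAT was in 27 of the 31 windows (87.1%), against 37.41% of all 32851 windows of the same length. At least 2 CCAAT matches were in 16 windows (51.61%), against 11.7% of all windows. TTTGAA was in 16 (51.61%, against 17.89%) and TTCGAA in 4 (12.9%, against 1.56%), and CCAAT together with either of them in 18 (58.06%, against 7.52%). TTTGGCGC was in 3 (9.68%, against 0.51%), TTTCCCGC in 2 (6.45%, against 1.07%) and TTTGGCGG in 0 of 31, against 0.56%. The first and the last of these E2F words share all but their final letter. A match is a description of letters and not of a bound site. The windows of 4 genes are shown because they carry the contrast described below. Top2a and Mki67 had the highest fold changes, Mcm6 is a replication gene with E2F words, and Ube2c did not pass the test in any comparison. Each is printed 5′ to 3′ on the strand of its gene, with matches in capitals (ATTGG and TTCAAA are CCAAT and TTTGAA on the other strand). The windows lie at chr11:99024140-99024439 (Top2a, minus strand), chr7:135716330-135716629 (Mki67, minus strand), chr1:128359656-128359955 (Mcm6, minus strand) and chr2:164769679-164769978 (Ube2c, plus strand).
Top2a: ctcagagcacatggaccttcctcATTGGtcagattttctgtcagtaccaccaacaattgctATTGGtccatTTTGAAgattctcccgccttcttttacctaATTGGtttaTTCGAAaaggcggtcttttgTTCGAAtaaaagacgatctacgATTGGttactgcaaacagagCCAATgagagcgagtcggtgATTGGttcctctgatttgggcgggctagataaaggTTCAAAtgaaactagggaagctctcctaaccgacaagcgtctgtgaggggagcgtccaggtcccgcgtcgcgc
Mki67: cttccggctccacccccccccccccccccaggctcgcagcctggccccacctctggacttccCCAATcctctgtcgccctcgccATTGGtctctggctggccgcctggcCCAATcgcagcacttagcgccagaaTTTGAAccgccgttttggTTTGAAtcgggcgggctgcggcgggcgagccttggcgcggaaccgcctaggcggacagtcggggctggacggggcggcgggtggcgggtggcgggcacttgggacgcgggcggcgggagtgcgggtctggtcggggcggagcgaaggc
Mcm6: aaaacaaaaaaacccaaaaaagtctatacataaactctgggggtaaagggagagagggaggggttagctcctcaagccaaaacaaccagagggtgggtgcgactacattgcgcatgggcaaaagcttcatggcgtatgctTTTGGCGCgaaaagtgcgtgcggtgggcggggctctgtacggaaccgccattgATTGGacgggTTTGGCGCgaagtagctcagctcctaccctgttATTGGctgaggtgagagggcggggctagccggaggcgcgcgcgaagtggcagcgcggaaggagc
Ube2c: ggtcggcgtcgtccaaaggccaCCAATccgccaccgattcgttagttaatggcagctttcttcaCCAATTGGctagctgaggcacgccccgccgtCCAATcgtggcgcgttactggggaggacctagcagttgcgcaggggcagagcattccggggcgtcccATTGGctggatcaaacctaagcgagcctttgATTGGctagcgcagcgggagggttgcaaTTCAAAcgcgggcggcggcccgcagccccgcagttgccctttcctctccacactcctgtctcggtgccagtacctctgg
The Top2a window holds 6 CCAAT boxes, 2 TTTGAA and 2 TTCGAA words. That of Mki67 holds 3 CCAAT boxes and 2 TTTGAA words, and that of Mcm6 2 CCAAT boxes and 2 TTTGGCGC words. The Ube2c window holds 6 CCAAT boxes, as many as that of Top2a, with 2 of them sharing the letters CCAATTGG, and 1 TTTGAA word, and it holds no TTCGAA.

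Depth, read from the smallest steps between values, was 15.6 to 24.2 in units of 1e+06 reads per library, and 3 reads, taken as the floor for a detected gene, amount to 0.124 to 0.192 CPM. Such floors cover counting error only. The 10 markers of muscle fibres summed to 116375 to 173548 CPM in GDF8 Ab ACLT and to 149658 to 166026 CPM in GDF8 Ab control libraries, and to 95274 to 173487 CPM in PLA Ab ACLT and 114876 to 153794 CPM in PLA Ab control libraries, as the tissue label has it. Y-linked genes were expressed in 6 libraries, GDF8 Ab library 3 and PLA Ab libraries 1 and 3 in both limbs (a mean of 4 genes of at least 30.8 CPM, against at most 0.403 CPM in the other 14). Within PLA Ab ACLT, library 5 was highest for 34 of the chosen genes and library 4 second for 33. A break before library 4 was not general. In libraries 1, 3, 2, 4 and 5, Mki67 rose by similar factors (3.60, 9.61, 21.0, 47.6 and 85.9 CPM). Ccnb2 rose most at library 4 (1.33, 1.89, 2.66, 11.2 and 16.8 CPM). Leaving out libraries 4 and 5 thus removes the highest values of the group, a choice tied to the outcome. Results that rest on libraries 4 and 5 are given with and without them. CPM is not scaled for gene length, so levels are compared between groups and not between genes. In bulk tissue, more cells of a dividing type and more RNA per cell cannot be told apart.

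**Figure D1:**
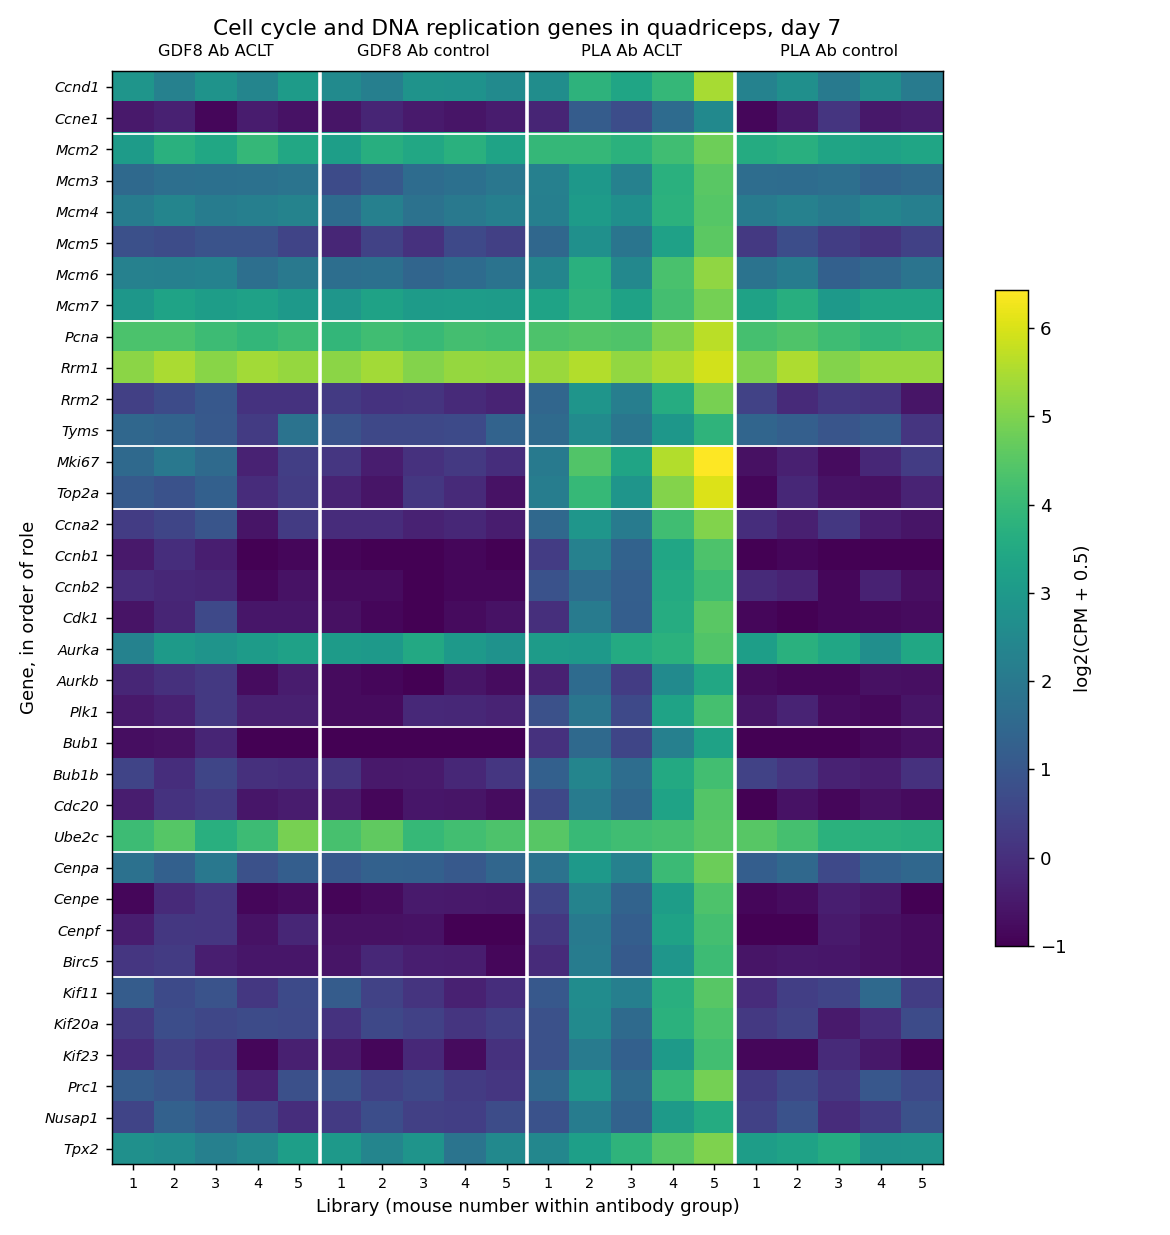
Heat map of log2(CPM + 0.5) of the 35 genes (rows, grouped by role) in the 20 libraries (columns, in 4 groups of 5, numbered by mouse within an antibody). Colour runs from dark blue (low) to yellow (high), and the PLA Ab ACLT block brightens most in library 5, which is the highest of its group for 34 genes.

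The first comparison asks how the injured muscle differs from the non-injured muscle when GDF8 is not blocked. Under PLA Ab, 30 of the 35 genes rose in the ACLT limb and 0 fell (limma on log2(CPM + 0.5), Benjamini-Hochberg adjusted p under 0.05 over 15794 genes). In this comparison 27.9% of all tested genes rose and 1.28% fell. The median log2 fold change of the 35 genes was 2.40, beside 0.21 for all tested genes. On this scale the added 0.5 understates the change of genes at low CPM. For 25 genes every PLA Ab ACLT library lay above every PLA Ab control library, which held for 10.6% of all tested genes. The call was lost by none of the 30 genes when any single library was left out. The share of all called genes that kept the call is not given here, so nothing particular to the 30 genes is read from it. Fitted by limma on the 10 PLA Ab libraries alone, 27 genes rose, as did 8.76% of all tested genes. In that fit Ccnd1 (adjusted p = 0.0502), Mcm4 (0.081) and Pcna (0.097) did not pass.

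Mki67, which encodes the Ki-67 protein that coats mitotic chromosomes and marks dividing cells, had 3.60, 21.0, 9.61, 47.6 and 85.9 CPM in PLA Ab ACLT libraries 1 to 5, against 0.127, 0.285, 0.0925, 0.385 and 0.743 CPM in PLA Ab control libraries 1 to 5. Every ACLT library was above every control library, and within the ACLT group library 5 was highest and library 1 lowest. The means were 33.5 ± 33.8 and 0.326 ± 0.261 CPM (SD, n = 5 each), a log2 fold change of 4.69 ± 0.59 (SE, limma adjusted p = 0.0001). Top2a encodes topoisomerase II alpha, which untangles DNA before chromosomes separate. It had 3.90, 15.1, 6.84, 32.9 and 64.9 CPM in PLA Ab ACLT libraries, against 0.0423, 0.380, 0.139, 0.128 and 0.330 CPM in PLA Ab control libraries, again without overlap. Its log2 fold change of 4.54 ± 0.50 had the smallest limma adjusted p of the 35 genes, 2.74e-05.

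**Figure D2:**
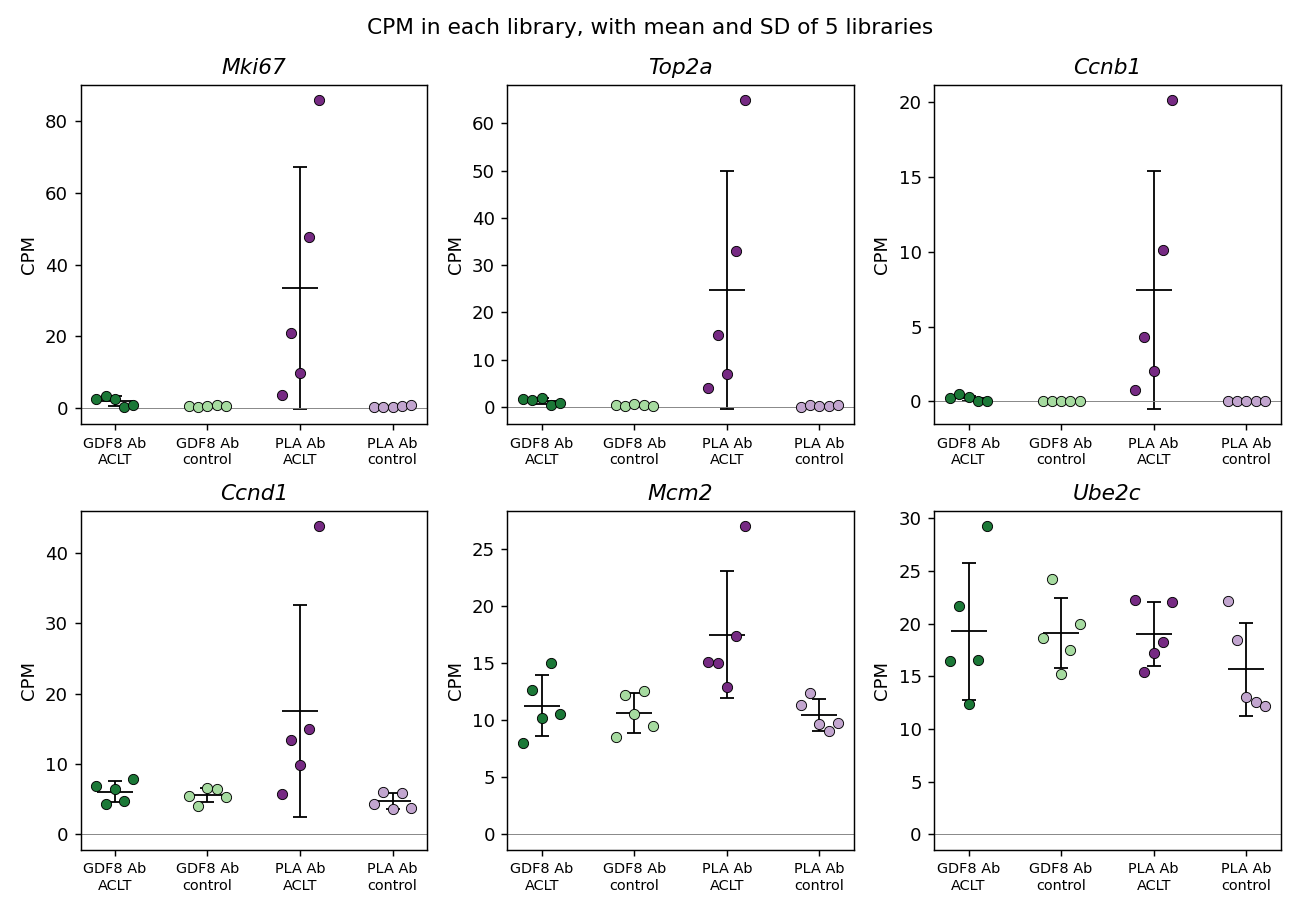
CPM (vertical axis, linear) of 6 genes in each library (points) of the 4 groups, with the group mean and SD of 5 libraries (bars). Mki67, Top2a and Ccnb1 are near 0 in all groups but PLA Ab ACLT, Ccnd1 and Mcm2 stand above 0 everywhere and are higher in PLA Ab ACLT, and Ube2c overlaps across all 4 groups.

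Among the growth-phase cyclins, both genes rose. Ccnd1, the cyclin D1 that starts the passage through the first growth phase, had 5.79, 13.4, 9.83, 15.0 and 43.8 CPM in PLA Ab ACLT libraries, against 4.37, 6.0, 3.62, 5.93 and 3.80 CPM in PLA Ab control libraries. ACLT library 1 lay within the control range and ACLT library 5 far above the other libraries, and the log2 fold change was 1.49 ± 0.34 (limma adjusted p = 0.00394). Ccne1, the cyclin E1 that triggers entry into DNA synthesis, rose by a log2 fold change of 1.60 ± 0.33 and averaged 2.20 ± 1.87 CPM in PLA Ab ACLT and 0.255 ± 0.208 CPM in PLA Ab control libraries.

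The MCM helicase is a ring of 6 related proteins that unwinds DNA ahead of the replication fork, and 5 of its 6 genes rose. The fold changes were unequal within the ring. Mcm5 and Mcm6 rose by log2 fold changes of 2.40 and 1.88, Mcm3 and Mcm4 by 1.55 and 1.05, and Mcm2 by 0.68 ± 0.18. Mcm2 had 15.1, 15.0, 12.9, 17.4 and 27.0 CPM in PLA Ab ACLT libraries, against 11.4, 12.4, 9.67, 9.04 and 9.78 CPM in PLA Ab control libraries, without overlap (limma adjusted p = 0.00959). With median-of-ratios scaling, an alternative to the library total, Mcm2 no longer passed (adjusted p = 0.0526). Mcm7 missed the threshold at a log2 fold change of 0.58 ± 0.22 (limma adjusted p = 0.0562), and passed with the mouse as a block (adjusted p = 0.0265).

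Of the 4 genes of DNA synthesis and nucleotide supply, 3 rose. Rrm2 encodes the small subunit of ribonucleotide reductase, which is made in the DNA synthesis phase and makes deoxyribonucleotides. It had 2.22, 6.80, 4.02, 11.6 and 29.4 CPM in PLA Ab ACLT libraries, against 0.888, 0.428, 0.648, 0.577 and 0.165 CPM in PLA Ab control libraries, without overlap (log2 fold change 2.98 ± 0.43, limma adjusted p = 0.000185). Rrm1, the large subunit of the same enzyme, had 39.6, 47.6, 37.1, 44.7 and 59.8 CPM in PLA Ab ACLT libraries, against 31.6, 44.9, 32.8, 38.8 and 38.7 CPM in PLA Ab control libraries. Its groups overlapped, and its log2 fold change of 0.28 ± 0.12 did not pass (limma adjusted p = 0.0884, or 0.0387 with the mouse as a block). Tyms, thymidylate synthase, and Pcna, the sliding clamp of DNA polymerase, rose by 1.59 and 0.64 on the log2 scale.

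The mitotic cyclins and kinases gave 6 of 7 genes that rose. Ccna2, the cyclin A2 of DNA synthesis and early mitosis, had 2.34, 7.05, 3.78, 17.2 and 32.1 CPM in PLA Ab ACLT libraries, against 0.474, 0.29, 0.654, 0.261 and 0.165 CPM in PLA Ab control libraries (log2 fold change 3.37 ± 0.46, limma adjusted p = 0.000146). Ccnb1, the cyclin B1 that drives entry into mitosis, had 0.740, 4.29, 2.03, 10.1 and 20.1 CPM in PLA Ab ACLT libraries. It was listed at 0 in 4 of 5 PLA Ab control libraries and at 0.0475 CPM, under the floor, in control library 2 (log2 fold change 3.31 ± 0.48, limma adjusted p = 0.000202). Neither gene overlapped between the groups. Cdk1, the kinase that partners cyclins A and B, Ccnb2, Plk1 (polo-like kinase 1, a kinase of mitotic entry and exit) and Aurkb (aurora B, which corrects chromosome attachment) rose by log2 fold changes of 3.16, 2.73, 2.79 and 2.29. Aurka, the aurora A kinase of the spindle poles, was the exception. It had 7.89, 7.59, 11.2, 12.8 and 20.8 CPM in PLA Ab ACLT libraries, against 8.46, 12.8, 10.1, 5.84 and 10.3 CPM in PLA Ab control libraries, which overlap (log2 fold change 0.28 ± 0.25, limma adjusted p = 0.419).

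Among the genes of the spindle checkpoint and of anaphase, 3 of 4 rose. Cdc20, which activates the anaphase-promoting complex, had 1.04, 3.80, 2.31, 9.42 and 21.1 CPM in PLA Ab ACLT libraries, against 0, 0.143, 0.0463, 0.128 and 0.0825 CPM in PLA Ab control libraries, without overlap (log2 fold change 3.18 ± 0.46, limma adjusted p = 0.000185). Bub1 and Bub1b, checkpoint kinases that hold back anaphase, rose by 2.44 and 2.61 on the log2 scale. Ube2c, the ubiquitin-conjugating enzyme of the anaphase-promoting complex, had 22.2, 15.4, 17.2, 18.2 and 22.0 CPM in PLA Ab ACLT libraries, against 22.2, 18.4, 13.0, 12.6 and 12.2 CPM in PLA Ab control libraries. Its groups overlapped (log2 fold change 0.30 ± 0.20, limma adjusted p = 0.281). Its promoter window printed above holds CCAAT and TTTGAA, as do those of Top2a and Mki67.

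All 4 centromere and kinetochore genes rose. Cenpa, the histone H3 variant that marks centromeres, had 2.96, 7.64, 4.35, 16.2 and 26.8 CPM in PLA Ab ACLT libraries, against 1.82, 2.33, 1.06, 1.92 and 2.31 CPM in PLA Ab control libraries, without overlap (log2 fold change 1.96 ± 0.40, limma adjusted p = 0.00199). Cenpe, a kinetochore motor, Cenpf, a large kinetochore protein, and Birc5, the survivin subunit of the chromosomal passenger complex, rose by log2 fold changes of 3.04, 2.98 and 2.66. Of the 6 genes of spindle motors and the spindle midzone, 5 rose. These were Kif11 (the motor that pushes spindle poles apart, 2.26), Kif20a and Kif23 (motors of cell cleavage, 2.43 and 2.95), Prc1 (a midzone bundling protein, 2.41) and Nusap1 (a spindle-associated protein, 1.72). Tpx2, an activator of aurora A at the spindle, had 4.88, 8.72, 13.8, 21.9 and 31.6 CPM in PLA Ab ACLT libraries, against 8.25, 9.17, 11.4, 6.54 and 6.68 CPM in PLA Ab control libraries. Libraries 3, 4 and 5 of the ACLT group lay above all controls and library 1 below them all, and the log2 fold change of 0.67 ± 0.35 did not pass (limma adjusted p = 0.162).

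The genes that did not pass were all shown by non-injured muscle. So were some that rose, such as Ccnd1 and Mcm4, with means of 4.74 and 4.09 CPM in PLA Ab control. Of the 7 genes with a mean over 5 CPM in PLA Ab control (Mcm2, Mcm7, Pcna, Rrm1, Aurka, Ube2c and Tpx2), 2 rose, and of the other 28, all 28 rose. For 17 genes every PLA Ab control library was under 1 CPM. Their low sum in that group, 3.09 to 3.85 CPM, is therefore fixed by the choice. They summed to 23.4, 94.9, 46.5, 216 and 426 CPM in PLA Ab ACLT libraries 1 to 5. In the GDF8 Ab groups, not used for the choice, they summed to 2.97 to 4.22 CPM (control) and 3.48 to 14.6 CPM (ACLT). The split at 5 CPM was made after the values were seen, on control values that are 1 side of the comparison. Of the 28 genes, 11 reached the filter only through PLA Ab ACLT libraries, which favoured a rise. The split is a description and lends no support to the calls.

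**Figure D3:**
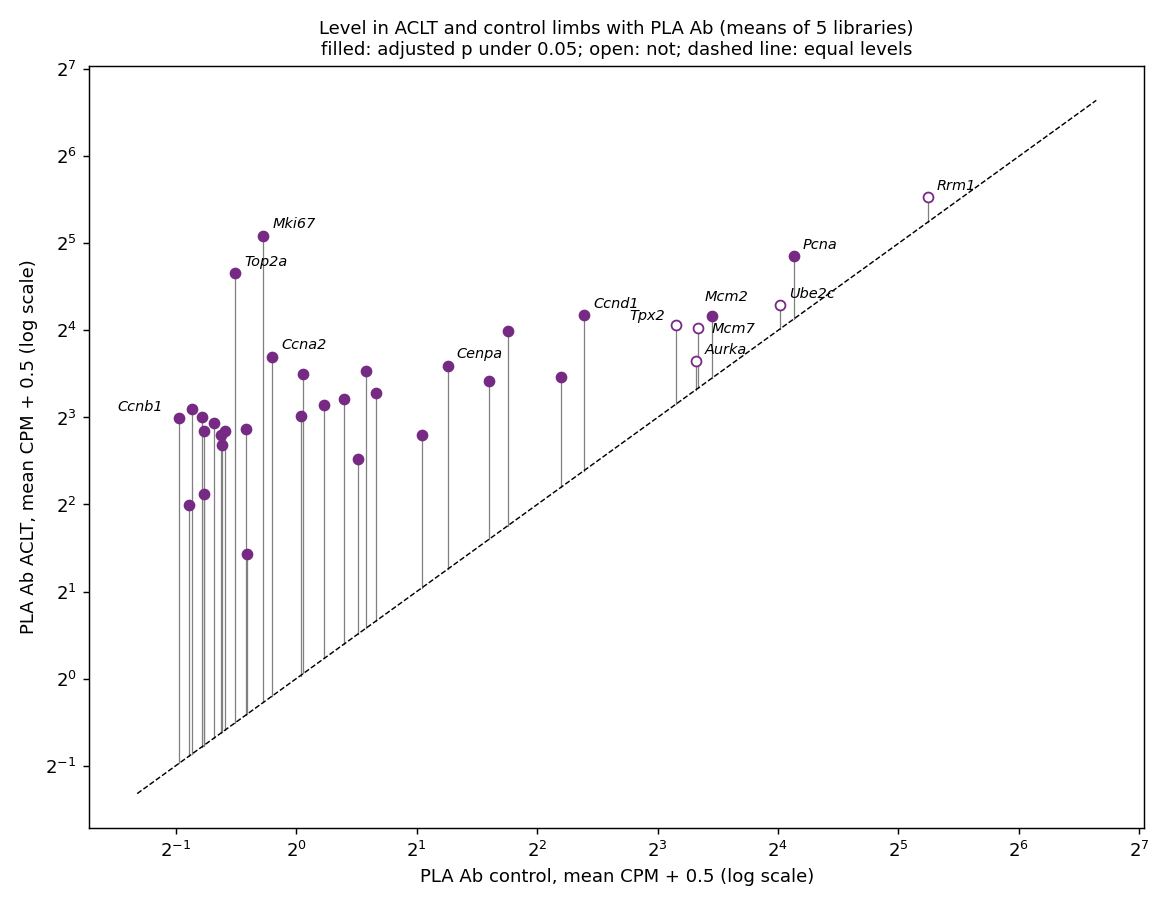
Mean CPM + 0.5 of 5 PLA Ab ACLT libraries (vertical axis) against that of 5 PLA Ab control libraries (horizontal axis), both on log scales, for each of the 35 genes. Grey lines run to the dashed line of equal levels, filled points passed the test and open points did not, and the 5 open points all lie among the 7 genes with a mean over 5 CPM in PLA Ab control.

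The 5 PLA Ab ACLT libraries had unequal levels of these genes, in nearly the same order for most of the 35. How many of all tested genes show this order is not given here, and its cause was not tested. Within PLA Ab ACLT, library 5 was highest for 34 of 35 genes, library 4 was second for 33, library 2 next for 30, library 3 next to last for 29 and library 1 lowest for 29. Summed over the 35 genes, libraries 1 to 5 had 176, 306, 216, 521 and 936 CPM, against 123 to 159.6 CPM in PLA Ab control libraries. Within the mouse, the ACLT limb was above the control limb in 5 of 5 mice for 32 genes, the exceptions being Ube2c (4 mice), Aurka and Tpx2 (3 mice each). The share of all tested genes with this pattern is not given here, so nothing particular to the 35 genes is read from it. Without libraries 4 and 5, 25 genes rose, as did 8.03% of all tested genes, and the median log2 fold change was 1.43. Libraries 1 and 3, the lowest for most of the genes, are those with Y-linked expression. Among libraries without Y-linked expression alone, 32 genes rose, with a median of 3.15, while 40.0% of all tested genes rose, with a median of 0.32.

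Summed markers of 2 other cell lists, macrophages with monocytes and satellite cells with myoblasts, moved with these genes across the PLA Ab ACLT libraries. The 16 markers of macrophages and monocytes, all 16 in the table and none at 0 in any library, summed to 364, 754, 473, 1676 and 2613 CPM in PLA Ab ACLT libraries 1 to 5, against 39.5 to 121 CPM in PLA Ab control libraries. The 10 markers of satellite cells and myoblasts summed to 93.2, 262, 105, 429 and 630.1 CPM, against 59.7 to 72.3 CPM. Both sums followed the order of the 35 genes, with libraries 5, 4, 2, 3 and 1 from high to low, and the muscle fibre markers followed the reverse order. The sums of endothelial, fibro-adipogenic progenitor, erythroid, neutrophil and lymphocyte markers did not follow that order. Of the satellite cell list, Mymk and Mymx, which fuse myoblasts, were at 0 in 3 and 6 of the 20 libraries. Endothelial markers summed to 253 to 328 CPM in PLA Ab ACLT and 197 to 340.1 CPM in PLA Ab control libraries, and fibro-adipogenic progenitor markers to 997 to 1452 and 599 to 1328 CPM in the same groups. The 7 erythroid markers in the table summed to 258 to 355 CPM in PLA Ab ACLT and 223 to 335 CPM in PLA Ab control libraries. The 7 of 10 neutrophil markers in the table summed to 2.14 to 14.3 CPM in PLA Ab ACLT and 0.791 to 1.70 CPM in PLA Ab control libraries, without overlap (means 7.46 ± 4.65 and 1.44 ± 0.369 CPM), and of these Camp and Ltf were at 0 in 11 of the 20 libraries each. The 3 of 10 lymphocyte markers in the table summed to 2.63 to 6.40 and 1.68 to 6.37 CPM in the same groups. Which cells carried the cell cycle RNA, and the part of these cell types in the result, was not tested.

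**Figure D4:**
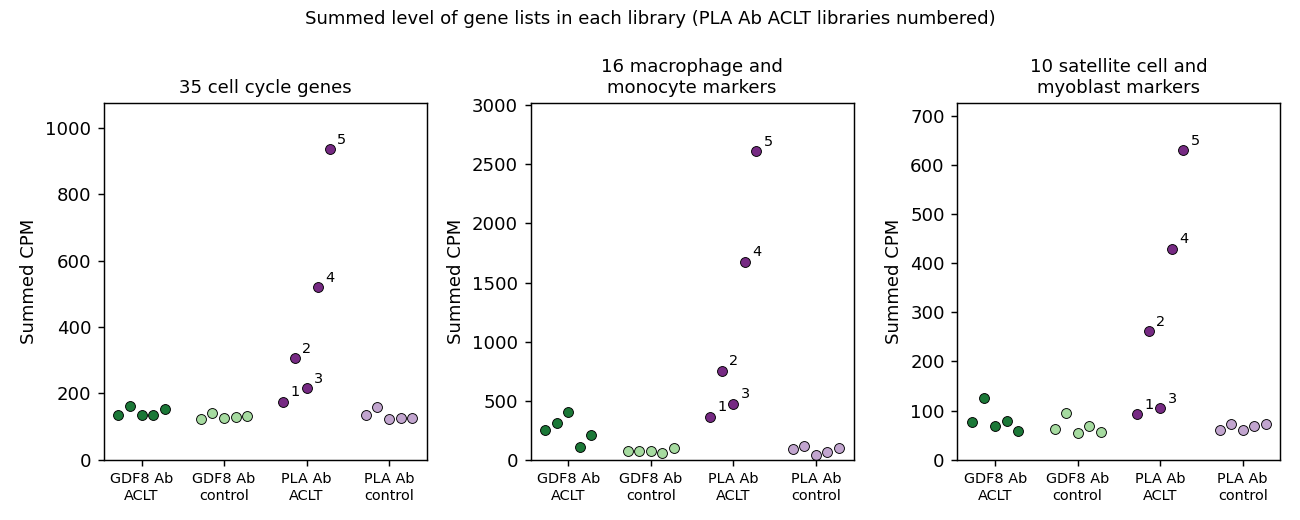
Summed CPM (vertical axes, from 0) of the 35 cell cycle genes, of 16 macrophage and monocyte markers and of 10 satellite cell and myoblast markers in each library (points) of the 4 groups, with PLA Ab ACLT libraries numbered. In each panel PLA Ab ACLT libraries 4 and 5 are the highest of all 20, while the 35 genes stay between 123 and 161 CPM in the other 3 groups.

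The second comparison asks the same of mice given the antibody against GDF8. Under GDF8 Ab, 0 of the 35 genes passed in either direction (limma, each adjusted p = 1.0), and 0 had an unadjusted p under 0.05. Of all tested genes 0.019% rose and 0% fell here, and 3.18% had such an unadjusted p. A count of 0 of 35 is therefore near that background. The median log2 fold change was 0.28, beside 0.06 for all tested genes. Mki67 had 2.39, 3.42, 2.49, 0.326 and 0.802 CPM in GDF8 Ab ACLT libraries 1 to 5, against 0.626, 0.261, 0.55, 0.684 and 0.488 CPM in GDF8 Ab control libraries 1 to 5. All ACLT libraries but library 4 were above every control library, with a log2 fold change of 1.02 ± 0.59. Top2a had 1.67, 1.34, 1.91, 0.466 and 0.755 CPM in GDF8 Ab ACLT libraries, against 0.334, 0.174, 0.641, 0.428 and 0.146 CPM in GDF8 Ab control libraries, and 4 of 5 ACLT libraries were above every control (log2 fold change 0.98 ± 0.50).

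The shared spread of that fit includes the wide PLA Ab ACLT group. Fitted by limma on these 10 libraries alone, 0 of the 35 genes still passed, while 11 of them, and 9.83% of all tested genes, had an unadjusted p under 0.05. In an exact two-sided permutation test of the mean log2(CPM + 0.5) (252 arrangements, smallest possible p = 0.00794, unadjusted), 8 genes had p under 0.05, all higher in the ACLT limb. Over both directions 8.78% of all tested genes had such a p. The arrangements mixed all 10 libraries and ignored that they are paired limbs of the same mice. Arrangements within the mouse, which are far fewer, were not run. The 8 were Cdk1 and Cenpf, whose ACLT libraries all lay above the controls (exact permutation p = 0.00794 each), and Top2a, Mcm5, Cdc20, Mcm6, Aurkb and Ccnb2. A lack of overlap in this direction, which 2 of 35 genes showed, held for 1.73% of all tested genes, and the opposite for 0.0633%. The amounts were low. Cdk1 averaged 0.389 ± 0.386 CPM in GDF8 Ab ACLT and 0.0801 ± 0.0596 CPM in GDF8 Ab control libraries, and Mcm6 3.86 ± 0.70 and 2.68 ± 0.335 CPM in the same groups. Within the mouse, the ACLT limb was above the control limb in 5 of 5 mice for 10 genes, in 4 mice for 11, in 3 for 11, in 2 for 2 and in 1 for 1. The matching shares of all tested genes are not given here. Ccna2 averaged 0.814 ± 0.459 CPM in GDF8 Ab ACLT and 0.378 ± 0.0898 CPM in GDF8 Ab control libraries. Ccnd1 averaged 6.07 ± 1.52 and 5.57 ± 1.00 CPM, and Mcm2 11.3 ± 2.66 and 10.7 ± 1.74 CPM in the same groups. Ccnb1 averaged 0.20 ± 0.19 and 0.0169 ± 0.0231 CPM, Cdc20 0.391 ± 0.232 and 0.141 ± 0.0683 CPM, Cenpa 2.29 ± 0.859 and 1.87 ± 0.271 CPM and Rrm2 0.928 ± 0.420 and 0.528 ± 0.144 CPM. Of the genes that non-injured muscle already showed, Rrm1 averaged 38.6 ± 4.33 and 36.8 ± 3.41 CPM, Tpx2 5.91 ± 1.60 and 5.51 ± 1.76 CPM and Ube2c 19.3 ± 6.50 and 19.1 ± 3.36 CPM. Aurka had the lower mean in the ACLT limb, 7.20 ± 1.75 CPM, against 8.01 ± 1.61 CPM in GDF8 Ab control libraries (log2 fold change -0.16 ± 0.25). Macrophage markers summed to 111 to 407 CPM in GDF8 Ab ACLT libraries, against 61.2 to 102 CPM in GDF8 Ab control libraries, without overlap. Satellite cell markers summed to 59.1 to 125 and 55.4 to 94.3 CPM in the same groups and overlapped.

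A further comparison sets the antibodies against each other in the injured limb. In GDF8 Ab ACLT, 32 of the 35 genes were lower than in PLA Ab ACLT at an adjusted p under 0.05, and 0 were higher (limma). Of all tested genes 17.4% were lower and 0.658% higher. The median log2 fold change of the 35 genes was -2.03, beside -0.21 for all tested genes. For 19 genes every GDF8 Ab ACLT library lay below every PLA Ab ACLT library, against 4.35% of all tested genes. Macrophage and monocyte markers summed to 111 to 407 CPM in GDF8 Ab ACLT and 364 to 2613 CPM in PLA Ab ACLT libraries (means 258 ± 111 and 1176 ± 955 CPM). Satellite cell and myoblast markers averaged 81.5 ± 25.4 and 304 ± 228 CPM in the same groups, and muscle fibre markers 152906 ± 25251 and 126728 ± 30049 CPM. The part of these cell types in the result was not tested. This comparison uses the same PLA Ab ACLT libraries as the first, so the 2 sets of calls are not independent of each other.

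Mki67 had 2.39, 3.42, 2.49, 0.326 and 0.802 CPM in GDF8 Ab ACLT libraries, against 3.60, 21.0, 9.61, 47.6 and 85.9 CPM in PLA Ab ACLT libraries. The highest GDF8 Ab library was just under the lowest PLA Ab library, and the log2 fold change was -3.33 ± 0.59 (limma adjusted p = 0.00630). Top2a averaged 1.23 ± 0.607 CPM in GDF8 Ab ACLT and 24.7 ± 25.1 CPM in PLA Ab ACLT libraries (log2 fold change -3.31 ± 0.50, limma adjusted p = 0.00403). Ccnb1 had 0.208, 0.476, 0.266, 0 and 0.0472 CPM in GDF8 Ab ACLT libraries, against 0.740, 4.29, 2.03, 10.1 and 20.1 CPM in PLA Ab ACLT libraries, and did not overlap (log2 fold change -2.89 ± 0.48, limma adjusted p = 0.00469).

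Ccna2 had 0.74, 0.982, 1.44, 0.175 and 0.731 CPM in GDF8 Ab ACLT libraries, with a log2 fold change against PLA Ab ACLT of -2.82 ± 0.46. Cdc20 had 0.260, 0.563, 0.71, 0.186 and 0.236 CPM (log2 fold change -2.59 ± 0.46) and Rrm2 0.833, 1.13, 1.55, 0.559 and 0.566 CPM (log2 fold change -2.53 ± 0.43). For these 3 genes every GDF8 Ab library was below the PLA Ab libraries, whose values are given above. Cenpa had 2.91, 1.95, 3.42, 1.31 and 1.84 CPM in GDF8 Ab ACLT libraries, of which library 3 exceeded the lowest PLA Ab ACLT library (log2 fold change -1.76 ± 0.40, limma adjusted p = 0.0140). Mcm2 had 8.01, 12.7, 10.2, 15.0 and 10.6 CPM in GDF8 Ab ACLT libraries and Ccnd1 6.90, 4.28, 6.50, 4.76 and 7.94 CPM. Both overlapped with PLA Ab ACLT, and both were lower by the test, with log2 fold changes of -0.59 ± 0.18 and -1.16 ± 0.34 (limma adjusted p = 0.0357 and 0.0307).

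Role by role, both growth-phase cyclins, both chromatin markers, all 6 MCM genes, 3 of 4 genes of DNA synthesis, 6 of 7 mitotic cyclins and kinases, 3 of 4 checkpoint genes, all 4 centromere genes and all 6 spindle genes were lower in GDF8 Ab ACLT. Without PLA Ab ACLT libraries 4 and 5 these tallies were 0 of 2 growth-phase cyclins, 2 of 2 chromatin markers, 1 of 6 MCM genes (Mcm5), 1 of 4 genes of DNA synthesis (Rrm2), 4 of 7 mitotic cyclins and kinases, 3 of 4 checkpoint genes, 2 of 4 centromere genes (Cenpe and Cenpf) and 1 of 6 spindle genes (Kif23). Of all tested genes 17.4% were lower with all libraries and 0.614% without libraries 4 and 5. Nothing particular to a role is read from the smaller tallies. In all libraries, Cenpe and Ccnb2 fell by 2.82 and 2.68 on the log2 scale, and Pcna fell by 0.61 with the smallest change of those that passed after Mcm2. The 3 genes that did not pass were Rrm1, Aurka and Ube2c. Rrm1 had 34.6, 44.3, 34.4, 41.5 and 38.1 CPM in GDF8 Ab ACLT libraries (log2 fold change -0.23 ± 0.12, limma adjusted p = 0.172) and Aurka 4.42, 7.79, 6.75, 8.02 and 9.01 CPM (log2 fold change -0.65 ± 0.25, limma adjusted p = 0.0689). Ube2c had 16.5, 21.7, 12.3, 16.6 and 29.3 CPM in GDF8 Ab ACLT libraries, with library 5 the highest of all 20 libraries (log2 fold change -0.03 ± 0.20). Tpx2 was lower, with 6.19, 5.63, 4.17, 5.13 and 8.45 CPM in GDF8 Ab ACLT libraries (log2 fold change -1.14 ± 0.35, limma adjusted p = 0.0360), but not with median-of-ratios scaling (adjusted p = 0.0548), as was also the case for Mcm2 (0.121) and Pcna (0.0688).

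The count of 32 changed with the fit and with single libraries. With a variance for each group, a setting added after the values were seen, it was 30, beside 10.2% of all tested genes, and Mcm2 and Tpx2 did not pass (adjusted p = 0.0872 and 0.0539). Fitted on the 10 ACLT libraries alone, 0 of the 35 genes passed (adjusted p of Mki67 = 0.167), as did 0 of all tested genes, while 33 of the 35, and 24.7% of all tested genes, had an unadjusted p under 0.05. Without PLA Ab ACLT library 4 the count was 16 and 1.12% of all tested genes were lower, and without libraries 4 and 5 the count was 14, beside 0.614%. When each library was left out in turn, 16 of the 32 genes passed in all 20 fits, among them Mki67, Top2a, Ccna2, Ccnb1, Cdc20 and Rrm2. The matching share of all called genes is not given here. Ccnd1, Mcm2, Cenpa and Tpx2 did not pass without PLA Ab ACLT library 4 (adjusted p = 0.0908, 0.0987, 0.0579 and 0.119). Exact two-sided permutation of the 10 libraries gave an unadjusted p under 0.05 for 31 genes, and for 19.8% of all tested genes. Among libraries without Y-linked expression, 34 genes were lower in GDF8 Ab ACLT, as were 44.4% of all tested genes.

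**Figure D5:**
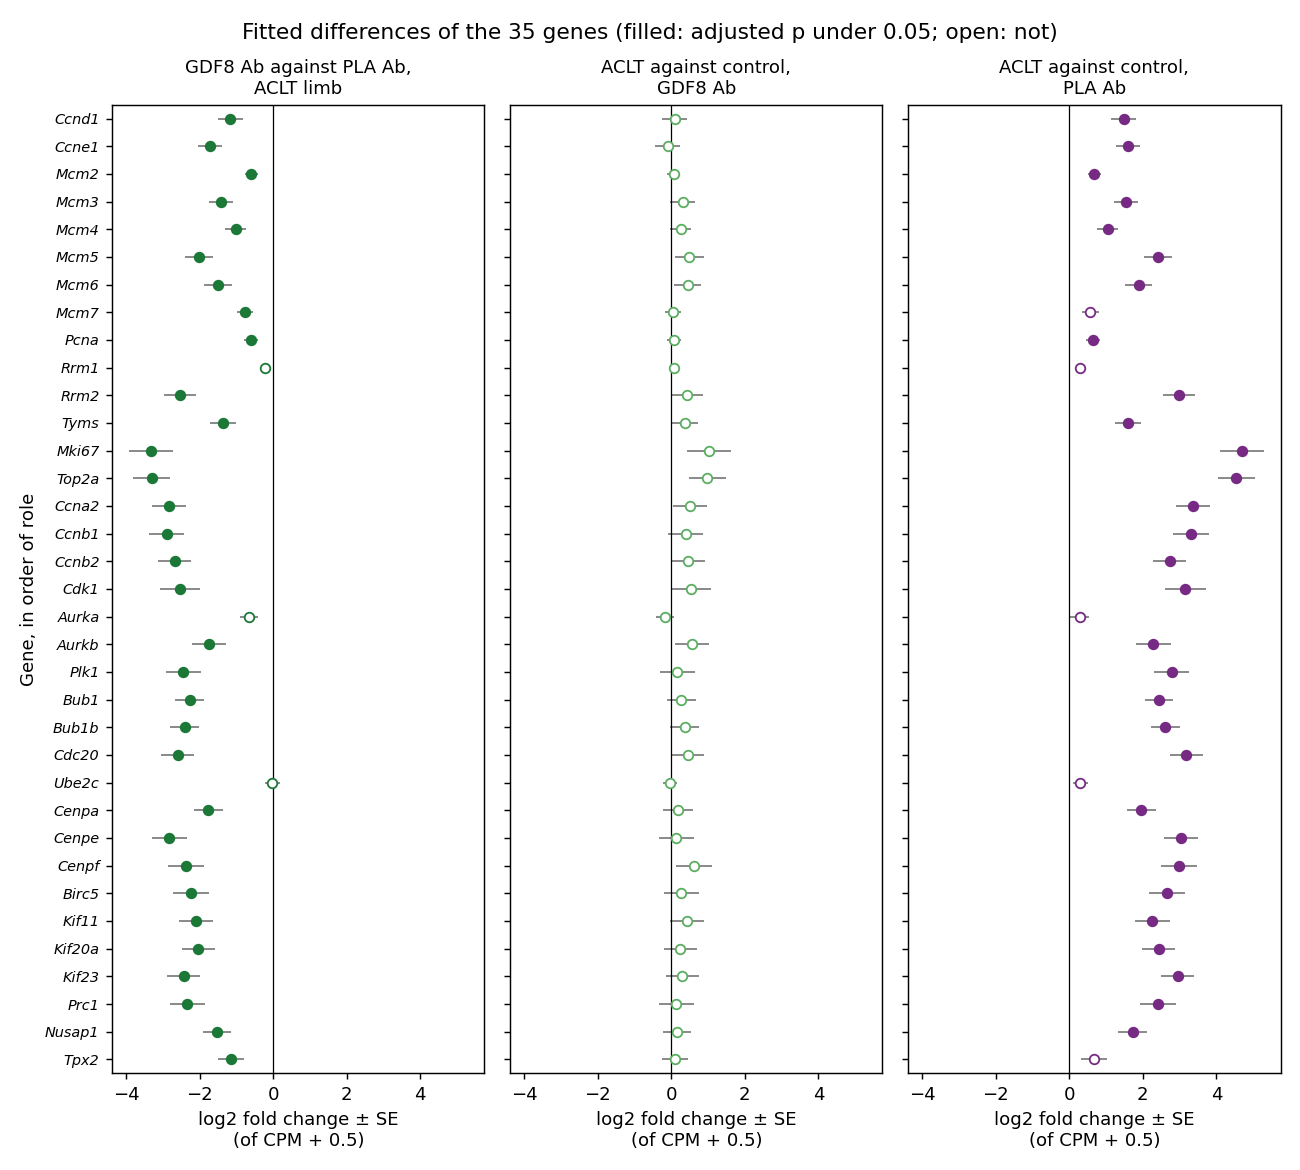
Fitted log2 fold changes of CPM + 0.5 (horizontal axes, points) with the SE of the fit (bars) for the 35 genes (rows, in order of role) in 3 comparisons, with filled points at an adjusted p under 0.05. In the left panel 32 genes lie below 0 and pass, in the middle panel none passes, and in the right panel 30 lie above 0 and pass.

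In the control limb, 0 of the 35 genes differed between GDF8 Ab and PLA Ab (limma, 0 with an unadjusted p under 0.05). Of all tested genes 0% were called in either direction, and 5.41% had such an unadjusted p. The median log2 fold change was -0.01 and the range was -0.59 (Tpx2) to 0.34 (Mki67). Summed over the 35 genes, the control limbs had 123 to 141 CPM under GDF8 Ab and 123 to 159.6 CPM under PLA Ab. Exact permutation gave an unadjusted p under 0.05 for 2 genes, Ccnb2 (p = 0.0397) and Tpx2 (p = 0.0476), both lower under GDF8 Ab, and for 8.64% of all tested genes. No gene of the 35 lacked overlap between these groups, while 0.323% of all tested genes lay wholly above and 1.68% wholly below with GDF8 Ab. Tpx2 averaged 5.51 ± 1.76 CPM in GDF8 Ab control and 8.40 ± 1.99 CPM in PLA Ab control libraries.

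Whether the response to injury itself differed between the antibodies was tested as an interaction, the fold change of ACLT against control under GDF8 Ab minus that under PLA Ab. All 35 genes had a negative interaction, from -3.67 (Mki67) to -0.22 (Rrm1). The share of all tested genes with that sign is not given here, but their median was also negative. The 35 values rest on the same libraries, so their signs are not separate results. By limma 29 had an unadjusted p under 0.05, as did 16.5% of all tested genes. None passed the adjustment over all tested genes, of which 0% passed in either direction. The smallest adjusted p was 0.178 for Top2a (log2 difference -3.56 ± 0.71), followed by 0.193 for Mki67 and others. The median of the 35 genes was -1.91, beside -0.17 for all tested genes. With the mouse as a block, Top2a passed (adjusted p = 0.0491). Without PLA Ab ACLT library 1 the count was 26 genes, beside 9.05% of all tested genes with a lower value, and without library 3 it was 7, beside 0.38%, these being the libraries with Y-linked expression. It was 28 when the 6 libraries with Y-linked expression were left out, when 22.9% of all tested genes passed as lower, and 18 when each group had its own variance, when 0.95% did. The count was 0 without PLA Ab ACLT libraries 4 and 5. The part of sex in these differences cannot be told apart from that of the single mice.

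Beyond the 35 genes, a wider list of 121 other cell cycle genes was compared, of which 120 were in the table and 118 passed the filter. Under PLA Ab, 84 of the 118 rose in the ACLT limb and 1 fell, beside 27.9% and 1.28% of all tested genes, with a median log2 fold change of 1.32. With median-of-ratios scaling 77 rose and 5 fell, beside 19.2% and 13.2% of all tested genes. Without PLA Ab ACLT libraries 4 and 5 the counts were 55 and 1, beside 8.03% and 0.171%. A fit of the PLA Ab libraries alone gave 50 and 1, beside 8.76% and 0.0443%. In the fit of all 20 libraries, genes of mitosis rose in 46 of 48 cases and genes of the replication origin and fork in 22 of 40. Cyclins, CDKs, RB and E2F genes rose in 11 of 23, with 1 lower, all beside the same 27.9%. The single lower gene, named after its value was seen, was E2f6, an E2F family repressor (152 ± 18.8 CPM in PLA Ab ACLT and 204 ± 19.9 CPM in PLA Ab control, log2 fold change -0.43 ± 0.10). Foxm1, the transcription factor of mitotic genes, averaged 7.19 ± 6.47 CPM in PLA Ab ACLT and 0.121 ± 0.0514 CPM in PLA Ab control libraries (log2 fold change 3.14 ± 0.43, limma adjusted p = 0.000144). Stmn1, a microtubule-destabilizing protein, rose by 2.79, and Ect2, which directs the cleavage furrow, by 2.55 on the log2 scale.

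Under GDF8 Ab, 0 of the 118 genes passed (limma, 2 with an unadjusted p under 0.05). Of all tested genes 0.019% rose and 0% fell, and 3.18% had such an unadjusted p. Neither count of the 118 genes stands out from that background. In the ACLT limb 75 of the 118 were lower with GDF8 Ab than with PLA Ab and 0 were higher, beside 17.4% and 0.658% of all tested genes, with a median of -1.16. With median-of-ratios scaling these counts were 63 and 3, beside 9.31% and 3.9% of all tested genes. Without PLA Ab ACLT libraries 4 and 5 they were 16 and 0, beside 0.614% and 0.00633%. In a fit of the ACLT libraries alone they were 0 and 0, beside 0% in either direction. By group, the 75 lower genes included 44 of 48 mitosis genes, 20 of 40 of the origin and fork, and 8 of 23 cyclins, CDKs, RB and E2F genes. Foxm1 averaged 0.399 ± 0.158 CPM in GDF8 Ab ACLT and 7.19 ± 6.47 CPM in PLA Ab ACLT libraries (log2 fold change -2.62 ± 0.43, limma adjusted p = 0.00469). Cdca3, a trigger of mitotic entry, fell by 2.14 and Ect2 fell by 2.25 on the log2 scale in GDF8 Ab ACLT. In the control limb 0 of the 118 passed by limma (1 with an unadjusted p under 0.05, beside 5.41% of all tested genes). In the interaction 0 passed (70 with an unadjusted p under 0.05, beside 16.5%).

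The CDK inhibitors, which hold the cell cycle back, did not move opposite to the cyclins. Of 7 tested inhibitors, 5 rose in the ACLT limb under PLA Ab, beside 27.9% of all tested genes. Cdkn1a, the p21 protein made on stress and on exit from the cycle, had 28.2, 79.7, 25.0, 132 and 175 CPM in PLA Ab ACLT libraries, against 16.4, 18.3, 16.1, 25.5 and 18.4 CPM in PLA Ab control libraries (log2 fold change 1.81 ± 0.57, limma adjusted p = 0.0226). Cdkn1c, the p57 protein that helps myoblasts leave the cycle, had 21.7, 54.5, 16.8, 89.4 and 92.7 CPM, against 15.0, 10.5, 11.0, 9.81 and 10.5 CPM (log2 fold change 1.93 ± 0.36, limma adjusted p = 0.00107). In both genes libraries 5, 4 and 2 were the highest of the ACLT group, as for the cyclins. Cdkn2a, Cdkn2c and Cdkn2d, inhibitors of the cyclin D kinases, rose by 1.64, 0.63 and 0.35, while Cdkn1b and Cdkn2b had log2 fold changes of 0.08 and 0.29 that did not pass. With median-of-ratios scaling Cdkn2d did not pass (adjusted p = 0.517) and Cdkn1b lay at -0.19, and without PLA Ab ACLT library 4 or 5 Cdkn1a did not pass (adjusted p = 0.0732 and 0.0812). In GDF8 Ab ACLT against PLA Ab ACLT, Cdkn1c, Cdkn2c and Cdkn2d fell by 1.37, 0.57 and 0.42 on the log2 scale. None of the 3 passed without PLA Ab ACLT libraries 4 and 5 (adjusted p = 0.352, 0.414 and 0.0726), and Cdkn2c and Cdkn2d did not pass with median-of-ratios scaling (0.0707 and 0.188). Cdkn1a did not pass between the antibodies, with 38.2, 75.6, 15.5, 18.9 and 18.1 CPM in GDF8 Ab ACLT libraries (log2 fold change -1.26 ± 0.57, limma adjusted p = 0.115, or 0.0393 without PLA Ab ACLT library 1 and 0.0374 without library 3).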

How the data were processed

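Quadriceps RNA-seq was taken as deposited. The deposited values are CPM that the authors computed. The submitters' notes name STAR 2.7.3a, Partek and DESeq2. Builds mm10 and mm39 are named there without saying which applies, so the table's coordinates are not used. GEO's labels gave the groups. Depth came from the smallest step between values. In each library 73.6% to 77.9% of values came out whole (tolerance 0.02 reads), too few to recover reads for a count model.

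Genes reaching 0.5 CPM in 3 or more libraries were tested. A model of 4 group means with a variance trend was fitted to log2(CPM + 0.5) of all 20 libraries in limma 3.58.1 under R 4.3.3. Within each of 5 comparisons p was adjusted by Benjamini-Hochberg and called under 0.05. The script was tested on simulated data. Tables and plots were made with Python.

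The labels number libraries 1 to 5 within a group. Same-numbered limbs were taken as those of 1 mouse, from the study's contralateral design. Sex-linked expression matched in 10 of 10 pairs, and deviations from group means correlated at r = 0.0393 to 0.473 (over 0.1 in 8 of 10 pairs). Only 12 of the 20 libraries correlated best with their own partner. PLA Ab ACLT library 2 had r = 0.0393 with its partner and 0.363 with another PLA Ab control library. The within-mouse counts and the mouse block rest on this pairing.

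The 35 genes and all lists were chosen with earlier results of these data known. Per-library values are given for Mki67, Top2a, the gene with the highest mean of each role and the 6 genes with the smallest adjusted p. Of the wider list, the 3 smallest adjusted p per comparison and all CDK inhibitors are named. Alternatives were other pseudocounts, filters, scaling and libraries, the mouse as a block, Y-linked expression as a covariate, and 2 added after the values were seen (group variances and exact permutation). The fit without PLA Ab ACLT libraries 4 and 5 is also tied to the values, since these are the highest of their group for most of the genes.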

Additional observations from a re-analysis of the deposited data

Results flagged for a closer look

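In each of the 13 genes given by library, the highest or lowest library of each group was compared with its neighbours by Dixon's ratio. Chance gives about 1 in 20 groups, and 2 of 52 groups stood out. Ccnd1 in PLA Ab ACLT library 5 was 43.8 CPM, while the other 4 libraries of the group had 5.79 to 15.0 CPM. Ccnb1 in PLA Ab control library 2 was 0.048 CPM, while the other 4 were listed at 0, and this value is under the floor of 3 reads.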

How the results depend on the processing

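Under PLA Ab, the count of 30 genes higher in ACLT ranged over 30 to 33 when single libraries were left out. Over all tested genes the number higher ranged over 2692 to 6140 in those fits. With a filter of 10 CPM in 5 libraries, which keeps 5 of the 35 genes, the count was 2. Of the 7937 genes tested with that filter, 18.4% were higher. Between the antibodies in the ACLT limb, the count of 32 genes lower with GDF8 Ab ranged over 16 to 33 when single libraries were left out (16 without PLA Ab ACLT library 4). Over all tested genes the number lower ranged over 177 to 5664 (177 without PLA Ab ACLT library 4). The count of the 35 genes was 14 without PLA Ab ACLT libraries 4 and 5, beside 0.614% of all tested genes. It was 0 with only the 2 groups compared, beside 0%, and 0 with the 10 CPM filter, beside 6.32%. The counts of 0 under GDF8 Ab and in the control limb remained 0 in every fit that left out 1 library. Unadjusted exact permutation gave 8 and 2, beside 8.78% and 8.64% of all tested genes. The interaction count of 0 ranged over 0 to 26 when single libraries were left out, while 0 to 1429 of all tested genes were lower. The count of the 35 genes was 1 with the replicate block, beside 0.0443% of all tested genes lower. It was 28 with only libraries without Y-linked expression (22.9%) and 18 with a variance for each group (0.95%). In that last setting the counts under PLA Ab and between the antibodies in the ACLT limb were 30 each. Of all tested genes 20.8% were higher and 10.2% lower there, respectively. The replicate block gave 32 under PLA Ab, beside 33.8% of all tested genes. It changed no call of the 35 genes but those of Mcm7, Rrm1 and, in the interaction, Top2a. Among the named genes, 2022 alternative values gave 40 losses and 39 gains of a call and 0 changes of direction of a called value. Over all tested genes, median-of-ratios scaling changed the calls under PLA Ab to 3038 higher and 2081 lower, beside 4412 and 202, with a median of -0.02 beside 0.21. In the ACLT limb it gave 616 higher and 1471 lower for GDF8 Ab against PLA Ab, beside 104 and 2742. Of the 35 genes, 29 were still called in each of these comparisons. With only the 2 groups compared, all tested genes gave 1383 higher and 7 lower under PLA Ab, and 0 in the ACLT limb. The causes were not tested. Of the 35 genes, 14 were at or under the floor of 3 reads in at least 1 of the 15 libraries outside PLA Ab ACLT, and small differences in these genes were not detectable there at this depth.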
